A study of Mus musculus with 6 samples.

Results

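Peak lists of methylated DNA were compared between 2 stages of a murine erythroblast line: 0 h, before differentiation, and 24 h, after a day in differentiation medium. Each stage was represented by 2 lists, one from cells with short hairpin RNA 133 and one from cells with hairpin 14, both directed against Plcg1, so that 4 of the 6 libraries of the series entered. The 4 lists were merged into 10085 regions by overlap of at least 1 bp. Each region, and each of 21887 mouse protein-coding genes with its body and 10 kb on either side (its window), was then scored by the number of lists in which it occurred at 0 h and at 24 h. Regions and genes found with both hairpins at one time and with neither hairpin at the other are the subject of what follows.

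The line, I/11, was established from fetal liver of p53-deficient mouse embryos (E12.5), and every group shares that deficiency. Cells at 0 h had been infected with lentivirus 72 h earlier, had been selected with 1 µg/ml puromycin and had grown in 1 U/ml erythropoietin (Epo) with stem cell factor and dexamethasone. Cells at 24 h, labelled with the same selection at 1 µg/ml puromycin, were taken 96 h after infection. Their medium held 10 U/ml Epo and holo-transferrin, without stem cell factor and dexamethasone. Time in differentiation medium, time since infection and the change of medium therefore cannot be told apart. The control libraries carry a scrambled hairpin and were not analysed here, so differences between the times describe cells with a Plcg1 hairpin and are not set against unperturbed differentiation. The hairpins are different constructs with 1 library each, and nothing in the labels gives a second culture. Methylated fragments were bound by MBD2-Fc, a fusion protein with a methyl-CpG binding domain, and DNA released at 1 M NaCl was sequenced. A listed region carries no score, and the sources used here do not say whether it holds more or less methylated DNA than a control.

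Phospholipase C gamma 1, the product of Plcg1, acts downstream of the Epo receptor and releases the second messengers that open calcium stores and activate protein kinase C. DNA methylation is written on cytosines of CpG dinucleotides. Most CpG-rich promoters are free of it, while the promoters of many developmental and germline genes gain it when they are shut for good, and erythroid maturation is known for a broad loss of methylation across the genome. The MBD2-Fc pull-down at high salt recovers fragments with many methylated CpGs and misses sparse ones.

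Some regions of one time overlapped the promoter window of a gene, though not always its start site. Of these windows, 4 are printed for each time, since their covered bases show the CpG content of DNA listed at 0 h only and at 24 h only. A promoter window is the stretch from 250 bases before to 50 bases after a start site, from RefSeq (GRCm38.p6, with mm10 coordinates). Sequences run 5′ to 3′ along the gene, and capitals mark the bases that the listed region covers. Listed with both hairpins at 0 h only were the windows of Six6 (a homeobox gene of eye and pituitary, chr12:72939632-72939931, plus strand), Apom (apolipoprotein M, chr17:35131752-35132051, minus strand), Gcnt7 (a glycosyltransferase gene, chr2:172458547-172458846, minus strand) and Rrp1b (a gene of ribosomal RNA processing, at a start site inside its body, chr17:32048035-32048334, plus strand).
Six6: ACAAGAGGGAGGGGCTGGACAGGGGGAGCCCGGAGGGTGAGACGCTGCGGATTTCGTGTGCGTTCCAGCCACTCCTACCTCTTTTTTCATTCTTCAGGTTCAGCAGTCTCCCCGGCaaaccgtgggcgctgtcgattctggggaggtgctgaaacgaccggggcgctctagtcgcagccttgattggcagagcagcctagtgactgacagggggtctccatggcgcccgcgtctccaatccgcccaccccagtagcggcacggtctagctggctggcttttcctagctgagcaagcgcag
Apom: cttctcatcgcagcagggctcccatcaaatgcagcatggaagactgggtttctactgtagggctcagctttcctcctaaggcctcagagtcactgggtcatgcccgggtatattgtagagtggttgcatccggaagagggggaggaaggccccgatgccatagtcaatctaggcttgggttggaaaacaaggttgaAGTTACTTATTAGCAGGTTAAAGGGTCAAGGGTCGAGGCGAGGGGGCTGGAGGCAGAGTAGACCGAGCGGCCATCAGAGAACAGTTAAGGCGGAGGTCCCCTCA
Gcnt7: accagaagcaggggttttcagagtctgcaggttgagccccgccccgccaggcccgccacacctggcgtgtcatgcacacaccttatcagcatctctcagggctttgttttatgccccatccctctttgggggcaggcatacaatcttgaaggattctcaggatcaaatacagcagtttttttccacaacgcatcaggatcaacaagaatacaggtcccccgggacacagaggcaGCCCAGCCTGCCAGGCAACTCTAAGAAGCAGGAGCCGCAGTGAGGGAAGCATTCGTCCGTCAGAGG
Rrp1b: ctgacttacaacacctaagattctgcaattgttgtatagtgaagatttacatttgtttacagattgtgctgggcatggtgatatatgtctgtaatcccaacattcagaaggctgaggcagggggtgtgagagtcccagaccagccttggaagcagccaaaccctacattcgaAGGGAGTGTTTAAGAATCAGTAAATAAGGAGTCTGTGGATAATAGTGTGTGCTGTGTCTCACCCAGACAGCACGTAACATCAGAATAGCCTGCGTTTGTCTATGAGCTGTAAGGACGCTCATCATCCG

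Listed with both hairpins at 24 h only were the windows of Utf1 (a transcription factor of pluripotent cells, chr7:139943606-139943905, plus strand), Sct (secretin, chr7:141279084-141279383, minus strand), Tsku (the secreted protein tsukushi, chr7:98361239-98361538, minus strand) and Lrrc9 (a leucine-rich repeat gene, at a start site inside its body, chr12:72441616-72441915, plus strand).
Utf1: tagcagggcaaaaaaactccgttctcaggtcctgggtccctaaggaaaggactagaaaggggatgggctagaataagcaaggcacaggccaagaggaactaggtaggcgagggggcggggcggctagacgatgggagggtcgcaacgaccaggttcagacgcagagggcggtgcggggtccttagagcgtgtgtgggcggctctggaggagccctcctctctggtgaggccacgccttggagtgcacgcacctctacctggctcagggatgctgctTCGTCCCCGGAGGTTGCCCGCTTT
Sct: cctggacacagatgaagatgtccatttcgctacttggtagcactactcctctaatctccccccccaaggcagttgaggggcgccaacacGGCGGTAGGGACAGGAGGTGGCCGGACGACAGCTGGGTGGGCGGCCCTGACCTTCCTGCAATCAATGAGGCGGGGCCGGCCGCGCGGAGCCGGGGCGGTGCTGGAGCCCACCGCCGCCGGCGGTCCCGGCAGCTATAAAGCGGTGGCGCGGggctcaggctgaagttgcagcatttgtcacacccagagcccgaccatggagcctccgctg
Tsku: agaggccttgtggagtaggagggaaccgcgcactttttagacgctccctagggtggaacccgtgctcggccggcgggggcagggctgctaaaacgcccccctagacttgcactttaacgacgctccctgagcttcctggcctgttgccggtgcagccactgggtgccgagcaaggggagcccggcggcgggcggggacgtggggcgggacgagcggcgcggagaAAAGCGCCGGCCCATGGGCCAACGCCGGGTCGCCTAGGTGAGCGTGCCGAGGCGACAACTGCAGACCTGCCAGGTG
Lrrc9: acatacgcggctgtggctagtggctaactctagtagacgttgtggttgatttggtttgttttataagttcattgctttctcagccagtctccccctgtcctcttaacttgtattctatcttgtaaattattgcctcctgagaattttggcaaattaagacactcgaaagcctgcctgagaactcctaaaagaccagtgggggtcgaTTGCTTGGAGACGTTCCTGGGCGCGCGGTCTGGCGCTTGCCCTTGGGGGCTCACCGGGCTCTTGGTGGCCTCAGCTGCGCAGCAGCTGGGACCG

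The 0 h windows of Six6, Apom, Gcnt7 and Rrp1b held 20, 9, 9 and 5 CpGs, of which 6, 5, 3 and 4 lay in the covered bases. The 24 h windows of Utf1, Sct, Tsku and Lrrc9 held 17, 24, 30 and 13, of which 3, 19, 8 and 8 were covered. In Sct the whole region fell inside the window, and in Utf1 24 bp did, the region continuing into the body of this short gene. Of the 17492 protein-coding genes with a promoter window, 20 had a region of both hairpins overlapping one at 0 h and no peak at 24 h. At 24 h 13 had one, with no peak at 0 h. Among regions of both hairpins, 4.33% of the 809 at 0 h only (3.03 to 5.97%) overlapped a promoter window. At 24 h only it was 6.63% of the 362 (4.29 to 9.7%), with overlapping 95% intervals. Ctsk (cathepsin K) and Batf3 were the other 0 h genes among the first 6 in rank, and Bend6 and Cfap20dc the other 24 h genes. The windows of Ctsk and Batf3 held 2 and 34 CpGs, and those of Bend6 and Cfap20dc 56 and 16. The 6 windows of each time thus overlapped in CpG number, from 2 to 34 at 0 h and from 13 to 56 at 24 h. These are counts of whole windows. The regions covered 43 bp with 2 CpGs in Ctsk and 1 bp with 0 in Batf3. In Bend6 and in Cfap20dc they covered 31 bp with 5 CpGs.

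Promoter windows touched by both hairpins at 24 h only (25 of 21238) had a median of 28 CpGs (quartiles 16 and 37), those touched by both at 0 h only (35) had 19 (11 and 25), and those touched in all lists (37) had 21 (14 and 25). The windows with 24 h regions therefore reached higher CpG counts, with overlapping quartiles. List by list the medians lay closer together, at 20 (hairpin 133) and 17 (hairpin 14) before differentiation, 20 and 21 after it, against 13 (4 and 24) over all windows. The motif GGGCGG, the binding sequence of Sp1-type factors, was searched on both strands. It occurred in 71.4% of the 0 h only windows, 68% of the 24 h only windows and 46.2% of all windows. Windows touched in all lists (67.6%) and in any list (66%) were near the one-time windows, so the share is not particular to either time. The GATA-type motif AGATAA, also searched on both strands, was in 2.86% of the 0 h only windows and in none of the 25 windows of 24 h only. It was in 0% of the windows of all lists, 3.4% of those of any list and 9.65% of all windows. These motif counts are matches of letters in short windows and no sites.

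Peaks were fewer at 24 h, and a larger share of them lay near gene starts. Sequencing depth is unknown, so peak numbers were not adjusted for it. The 0 h lists held 3900 peaks with hairpin 133 and 3437 with hairpin 14, and the 24 h lists 2960 and 2666. The share of peaks within 1 kb of the first base of a protein-coding gene was 8.72% with hairpin 133 (95% interval 7.86 to 9.65%) and 9.52% with hairpin 14 (8.56 to 10.5%) at 0 h, and 12.3% (11.1 to 13.5%) and 13.7% (12.4 to 15%) at 24 h. Both 24 h lists stood above both 0 h lists, by 3.55 percentage points with hairpin 133 and 4.16 with hairpin 14, or 1.41 and 1.44 times, and the intervals of the times did not overlap. The exact permutation test over the lists gave p = 0.333 (two-sided), the smallest p that 2 lists against 2 can give. It gave the same p for the peak number per list. The p was also the same for the shares of peaks at last bases and either end, in promoter windows and gene bodies, far from genes and on X. Distance bins, merged regions and gene lists were not tested. The intervals are exact binomial, cover counting error only, and treat neighbouring peaks as separate.

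At the last base of genes the 24 h shares were also higher, 1.27 times with hairpin 133 and 1.21 times with hairpin 14. The 0 h shares were 2.36% (hairpin 133) and 2.27% (hairpin 14), the 24 h shares 3.01% and 2.74%, with overlapping intervals (1.80 to 2.89% over the 0 h lists and 2.16 to 3.69% over the 24 h lists). They rest on few peaks, 92 and 78 at 0 h and 89 and 73 at 24 h. Whether first and last bases differ in this was not tested. Counted over either end of a gene, the share at 24 h exceeded that at 0 h by 6.02 percentage points on average. It did so by 4.93 once exact coordinate matches between the hairpins of a time were left out. First and last bases could be told apart for 17492 of the genes, those with a promoter window and therefore a known strand.

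**Figure D1:**
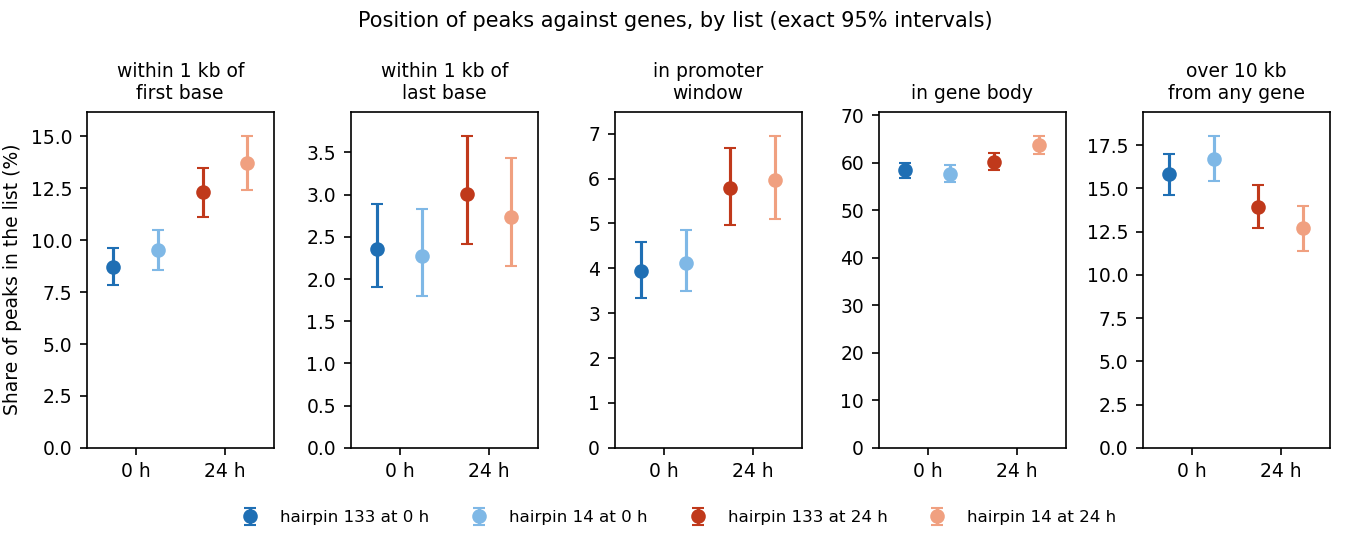
Share of peaks (%) in 5 positions against genes for each of the 4 lists, as points with exact 95% binomial intervals. In the panel of first bases both 24 h lists (12.3% and 13.7%) lie above both 0 h lists (8.72% and 9.52%), while in the panel of last bases the intervals overlap.

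The gain in share at 24 h was on both sides of the start site and, in percentage points, largest just inside the gene. In the first 500 bp downstream of the nearest start site lay 4.80% (hairpin 133) and 4.74% (hairpin 14) of the 0 h peaks, against 6.96% and 7.63% of the 24 h peaks. In the 500 bp upstream the shares were 2.67% and 2.79% at 0 h and 3.85% and 3.98% at 24 h. Promoter windows themselves were touched by 3.93% (133) and 4.13% (14) of the peaks at 0 h and by 5.78% and 5.97% at 24 h. Shares of peaks are relative: the numbers of peaks within 1 kb of a first base were 340 and 327 at 0 h and 363 and 364 at 24 h, so these peaks were about as many while the lists became shorter.

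**Figure D2:**
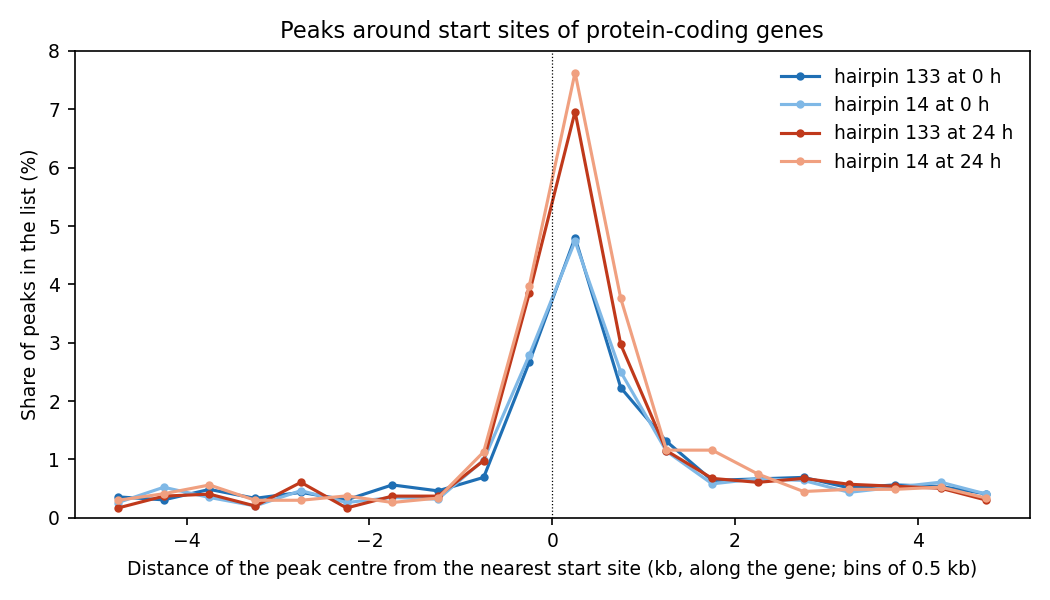
Share of the peaks of each list (%) by distance of the peak centre from the nearest start site of a protein-coding gene, in bins of 0.5 kb, with downstream positions to the right. The lists of 24 h (6.96% and 7.63%) exceed those of 0 h (4.80% and 4.74%) in the bin just downstream of the start site.

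Away from gene starts the lists became shorter. Gene bodies held 58.4% (hairpin 133) and 57.7% (hairpin 14) of the 0 h peaks, against 60.2% and 63.7% of the 24 h peaks. The intervals of hairpin 133 overlapped between the times (56.8 to 60% and 58.4 to 62%). More than 10 kb from any gene lay 15.8% and 16.7% at 0 h and 13.9% and 12.7% at 24 h. In numbers these distant peaks went from 615 to 411 with hairpin 133 and from 573 to 337 with hairpin 14. The X chromosome held 60 and 56 peaks at 0 h and 34 and 32 at 24 h, or 1.54% and 1.63% against 1.15% and 1.20%, with overlapping intervals (1.18 to 2.11% at 0 h, 0.797 to 1.69% at 24 h).

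Most regions came from 1 list, 4396 of them at 0 h and 3593 at 24 h. Both hairpins and 0 h only accounted for 809 regions (8.02% of all), and both hairpins and 24 h only for 362 (3.59%). They made up 67.1% of the 1206 regions that both hairpins had at 0 h and 48.6% of the 745 that both had at 24 h. Regions of 3 lists or of 1 list at each time numbered from 67 to 120 for each combination, whichever hairpins and times were combined.

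**Figure D3:**
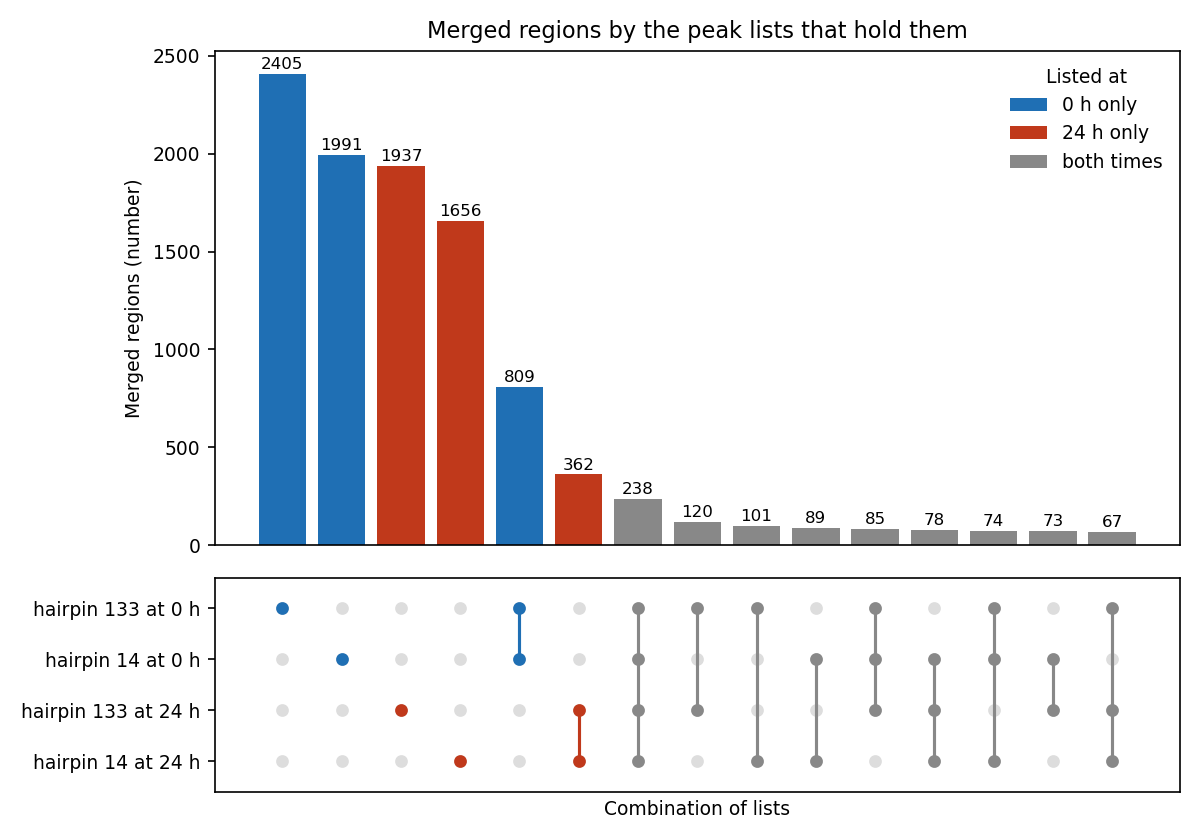
Number of merged regions in each combination of the 4 lists, with the combination marked by linked dots under each bar. Regions of both hairpins at 0 h only (809) and at 24 h only (362) exceed the 238 regions of all lists, and the bars of regions in 1 list are the highest.

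Most of these regions had the very same start and end with both hairpins, 573 of the 809 at 0 h (70.8%) and 318 of the 362 at 24 h (87.8%). The sources used here do not say whether the lists of a time were called separately. How far an exact match counts as separate observations with the hairpins is therefore unknown, and was not tested. When peaks with such exact matches were removed before the lists were merged, 236 regions were 0 h only and 45 were 24 h only. A region of one time was not always far from peaks of the other: 50 of the 0 h regions (6.18%) had a 24 h peak within 1 kb and 111 (13.7%) within 10 kb, and 45 of the 24 h regions (12.4%) had a 0 h peak within 1 kb and 92 (25.4%) within 10 kb.

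Regions of the 2 times differed in where they lay, in the way the whole lists did. Within 1 kb of a first base were 9.52% of the 0 h only regions (7.58 to 11.8%) and 15.2% of the 24 h only regions (11.7 to 19.3%). Regions that single lists added at one time were lower at each stage, at 4.30% (3.72 to 4.94%) at 0 h and 8.05% (7.18 to 8.99%) at 24 h, and regions of all lists reached 33.8% (27.8 to 40.2%). The order of the times was the same for regions of both hairpins and for those of 1 hairpin. These regions are parts of the same 4 lists, so the order is no support apart from the whole-list shares. The intervals of the regions of both hairpins just overlap. Gene bodies held 57.1% of the 0 h only regions (53.6 to 60.5%) and 68.5% of the 24 h only regions (63.4 to 73.3%), and 18% and 10.8% lay over 10 kb from any gene. By chromosome, 7.79% of the 0 h only and 3.87% of the 24 h only regions were on chromosome 1, which held 5.96% of all regions. Chromosome 10 held 11.5% and 14.4% against 9.95%. The X chromosome held 1.24% (10 regions) and 0.552% (2 regions) against 1.58%.

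Among the genes, 500 of 21887 (2.28%) had a peak with both hairpins at 0 h and none at 24 h, and 280 (1.28%) had one with both at 24 h and none at 0 h. These are 38.7% of the 1293 genes found with both hairpins at 0 h and 28.3% of the 988 found with both at 24 h, and 453 genes had all 4 lists. The peaks of the hairpins need not coincide: a merged region of both hairpins lay in the window of 364 of the 500 genes (1.66% of all genes) and 190 of the 280 (0.868%). Since windows overlap, the 364 genes rest on 314 regions and the 190 on 157. Genes of one time were longer than others, with medians of 45.7 kb (0 h) and 34.5 kb (24 h) against 17.2 kb for all genes. Counts per gene were not adjusted for length. Plcg1, the targeted gene, had no peak in its window in any list (chromosome 2, 160731310 to 160775760).

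No gene of either kind had more than 2 regions of both hairpins; 16 had 2 at 0 h and 6 at 24 h. The genes named next lead the ranking by that number, then by peaks and by shorter length. Close regions count separately in this ranking. The pairs of Panx1, Hephl1, Prss36 and Bcorl1 would each join if peaks within 500 bp were merged. Gsg1l, an auxiliary subunit gene of AMPA receptors on chromosome 7 (125878412 to 126082757), was listed at 0 h alone, through 2 peaks (hairpin 133) and 3 peaks (hairpin 14). Its regions of both hairpins were at 126076484 to 126076634, in the body, and 126086693 to 126086843, beside it. Map3k13, which encodes a leucine zipper kinase, had the same 2 and 3 peaks, and both of its regions were inside the body, 42.1 and 91.9 kb from the first base. Slc14a2, a urea transporter gene, also had 2 and 3. In these genes the peaks lay along or beside long bodies, from 109 kb in Map3k13 to 451 kb in Slc14a2.

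Panx1, the gene of the channel protein pannexin 1, showed the closest pair. Its 0 h regions on chromosome 9, at 15044982 to 15045132 and 15045172 to 15045322, lay 0.421 and 0.231 kb inside the gene from its first base and were listed with identical coordinates with both hairpins. Hephl1, a ferroxidase gene next to it, is counted through the same regions, 6.78 and 6.59 kb past its last base. Prss36, a serine protease gene, had its pair 1.95 and 1.39 kb from the first base. Nek9, a kinase of mitotic spindle assembly, and its neighbour Zc2hc1c had 3 peaks with hairpin 133 and 2 with hairpin 14 and share both regions, 1 in each body. Bin1 (a membrane-bending adaptor), Ccdc180, Dcdc2a (a doublecortin-domain gene), Pkp1 (plakophilin 1 of desmosomes), Ppp1r12b (a myosin phosphatase subunit), Sp100 (a nuclear body protein) and Hoxb7 had 2 peaks with each hairpin at 0 h. Pkp1 had one of its regions across an edge of its body, at 135919122 to 135919272 on chromosome 1. Its strand was not given, so whether this edge holds the first or the last base is not known here.

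At 24 h Utf1 stood out by density. This gene of 1.26 kb on chromosome 7 (139943856 to 139945112) had 2 peaks with hairpin 133 and 3 with hairpin 14, all counted in its window, and none at 0 h. Its regions of both hairpins, at 139943882 to 139944032 and 139944797 to 139944947, lay 0.101 and 1.02 kb inside the gene. The printed window of Utf1 shows where the first of them begins. Kndc1, a neuronal exchange factor gene, is counted through the same regions, 2.42 and 3.33 kb past its last base, and has none in its own body.

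Sh2b2, which encodes an adaptor of receptor tyrosine kinases and JAK2, had 2 peaks with hairpin 133 and 3 with hairpin 14 at 24 h. Its regions lay 1.84 and 8.74 kb inside the gene, on chromosome 5 at 136244683 to 136244833 and 136237777 to 136237927. Ift43, a ciliary transport gene, had 3 and 2 peaks, with 1 region in its body and 1 upstream in the body of Tgfb3. Bcorl1, a corepressor gene on X, had 2 and 2 in a pair at 48343615 to 48343765 and 48343812 to 48343962, 2.33 and 2.53 kb inside the gene. Lpcat2, a phospholipid acyltransferase gene, had a region 0.196 kb inside its first base and one at 33.4 kb. In all of these genes the 0 h lists were at 0.

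The other 24 h genes had 1 region of both hairpins each. Slc24a3, a sodium, potassium and calcium exchanger gene, had it 0.514 kb inside the gene, and Gnpda2, a gene of amino sugar metabolism, 0.162 kb inside. Nkx2-2, a homeobox gene of ventral neural tube and pancreas, had 2 peaks with each hairpin, and its region was in the body at 147182854 to 147183004 on chromosome 2. Hoxc11 had 1 peak with hairpin 133 and 4 with hairpin 14, the most uneven of these genes, and its region lay beside the body. Glis1 (a zinc finger factor) and Kcnq1 (a potassium channel gene in an imprinted domain) had 3 with hairpin 133 and 1 with hairpin 14. Cplx2 (complexin 2) had 2 and 3, Myorg (a glycosidase) 2 and 2, and Ddt 2 and 1, with its region in the body of Cabin1.

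**Figure D4:**
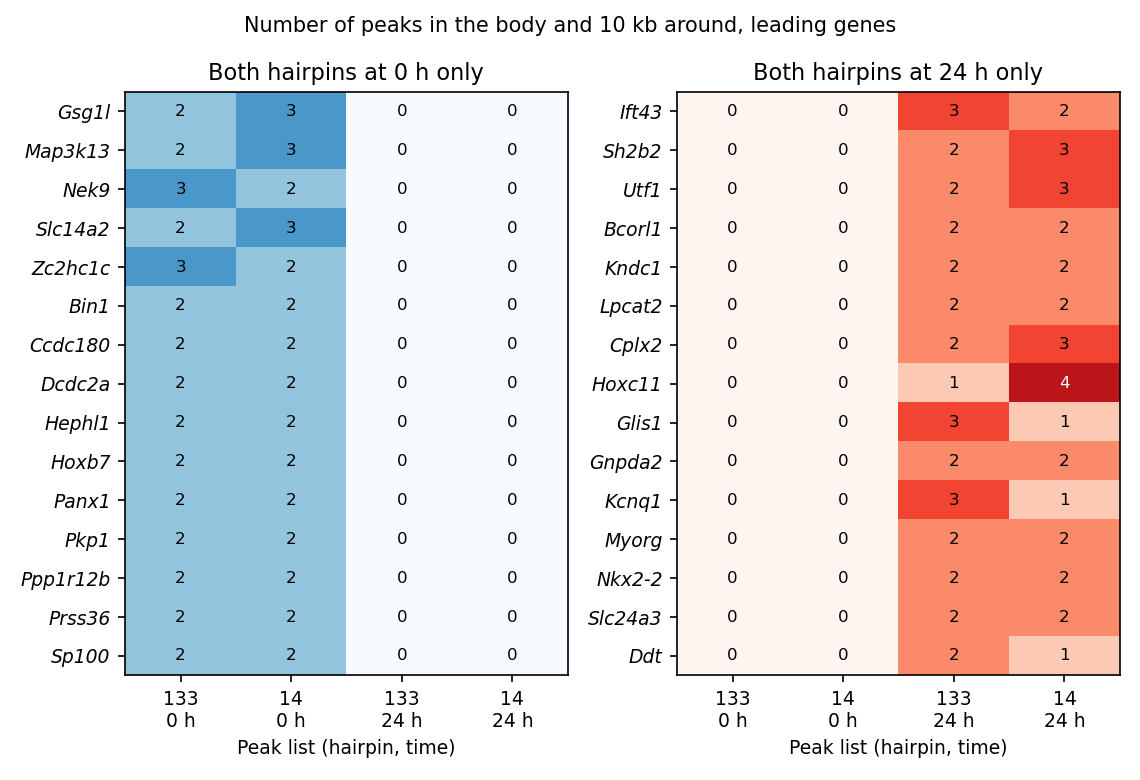
Number of peaks in the window (body and 10 kb around) of the first 15 genes in rank for 0 h only (left) and 24 h only (right), by list. Cells of the time that chose the gene hold 1 to 4 peaks and those of the other time hold 0, as the choice requires, so the zeros are no finding.

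These genes depend on the window. With 50 kb on either side, Ccdc180, Hoxb7, Pkp1, Ppp1r12b and Slc14a2 took in a peak of 24 h, and Ddt, Hoxc11, Ift43, Kndc1, Lpcat2 and Utf1 a peak of 0 h. With the body alone, 13 of the 15 genes of 0 h and 12 of the 15 of 24 h kept peaks of both hairpins. Without peaks of identical coordinates, 6 of 15 did so at each time.

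Developmental regulators appeared on both sides. The non-Hox homeobox and paired genes number 135. Peaks lay in the windows of 54 of them with hairpin 133 and 48 with hairpin 14 before differentiation, and of 60 and 57 after it, while over all genes the number went from 2785 and 2417 to 2299 and 2127. Both hairpins at 0 h only were found for 5 of them (3.70%), beside 2.28% of all genes, and at 24 h only for 9 (6.67%), beside 1.28%. A region of both hairpins lay in the window of all 5 and of 6 of the 9. These genes were often listed at either time: 65.9% had a peak in any list, beside 26% of all genes. Both hairpins at both times were found for 27. The 0 h genes were Six6 and Six4, Prrx1 (limb mesenchyme), Pax5 (B cells) and En2 (hindbrain). The 24 h genes included Nkx2-2, Vax1 and Otx2 (forebrain and eye), Alx4 (skull and limb), Pou3f1 and Evx1. Otx2 on chromosome 14 had its region at 48655256 to 48655406, 1.45 kb past its last base, and Pou3f1 on chromosome 4 had it inside the body at 124657851 to 124658001. In both groups the named genes had 1 or 2 peaks with each hairpin, so single peaks decide membership.

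Of 39 genes of the Hox clusters, 3 were found at 0 h only (7.69%, beside 2.28% of all genes), Hoxb6 and Hoxb7 among them, and 1 at 24 h only (Hoxc11; 2.56%, beside 1.28%). Members with a peak went from 20 to 15 with hairpin 133 and from 21 to 24 with hairpin 14. Hoxb6 and Hoxb7 share a region at 96285259 to 96285409 on chromosome 11, between their bodies. Of 79 Sox, T-box and forkhead genes, Sox12 and Sox13 were found at 0 h only and Foxf2 at 24 h only, which is near the share of all genes. Among 58 Gata, Prdm and bHLH genes, 0 were found at 0 h only and 2 at 24 h only (3.45%, beside 1.28%). These were Gata2 and Myog, the muscle factor myogenin, counted through a region 6.81 kb past its last base and inside Ppfia4.

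Gata2, a factor of blood stem and progenitor cells that gives way to Gata1 during red cell maturation, had no peak at 0 h, 1 peak with hairpin 133 and 2 with hairpin 14 at 24 h. The region of both hairpins lay in its body on chromosome 6, at 88200321 to 88200471, 6.50 kb from the first base. Of 32 stem and progenitor regulators, 3 were found with both hairpins at 24 h only (9.38%, beside 1.28% of all genes) and 0 at 0 h only (beside 2.28%). They were Gata2, Flt3 (a cytokine receptor of early progenitors) and Etv6 (an ETS repressor). Flt3 and Etv6 each had 1 peak (hairpin 133) and 3 peaks (hairpin 14) at 24 h, which did not overlap between the hairpins. Members of this list with a peak went from 10 and 8 at 0 h to 12 and 12 at 24 h.

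The list around the targeted gene holds 77 genes of calcium signalling and of the phospholipase C and protein kinase C families. Before differentiation 23 of them were listed with each hairpin, and after it 18 with hairpin 133 and 12 with hairpin 14. Found with both hairpins at 0 h only were 7 (9.09%, beside 2.28% of all genes), and at 24 h only 3 (3.90%, beside 1.28%), so that both shares exceeded those of all genes and the larger number at 0 h is also that of all genes. A region of both hairpins lay in the window of 3 of the 7 and 1 of the 3. Genes of this list are long, with a median of 71.7 kb against 17.2 kb for all genes, and counts were not adjusted for this. Of the 0 h genes, Plcd4 and Plch2 (phospholipases C) and Rasgrp1 (a diacylglycerol-activated Ras exchange factor) had a region of both hairpins; Plcb1, Prkce (protein kinase C epsilon) and Atp2b4 (a plasma membrane calcium pump) had peaks that did not overlap. At 24 h Plcd3 had a region 0.576 kb inside the gene, at 103101059 to 103101209 on chromosome 11, while the peaks of Prkcb (protein kinase C beta) did not overlap between the hairpins.

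Epo receptor and Kit signalling genes, 54 in all, had 2 at 0 h only (3.70%, beside 2.28% of all genes) and 1 at 24 h only (1.85%, beside 1.28%). Pik3cd, a catalytic subunit of phosphoinositide 3-kinase, had 2 peaks with hairpin 133 and 1 with hairpin 14 at 0 h only, and Irs2, an adaptor, 1 and 1 that did not overlap. Sos1, a Ras exchange factor, was counted at 24 h only through a region 9.63 kb past its last base, in the body of Arhgef33.

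Genes of the red cell were in any list about as often as other genes or more often: 11 of 28 erythroid transcription factors (39.3%) and 16 of 65 globin, haem, iron and membrane genes (24.6%), beside 26% of all protein-coding genes. Of the erythroid transcription factors, Tcf3 alone was found with both hairpins at 0 h only (3.57%), through a region at 80426883 to 80427037 on chromosome 10, and 0 at 24 h only. Of the other list, Cd44 (an adhesion receptor) was found at 0 h only and Epb41 (protein 4.1 of the membrane skeleton) at 24 h only, 1.54% each. The shares of all genes were 2.28% at 0 h only and 1.28% at 24 h only. The region of Epb41 lay in its body, 26.9 kb from the first base, with 1 peak of hairpin 133 and 2 of hairpin 14. A list of methylated regions does not measure transcripts, so these genes do not check the cell type of the line.

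Markers of other blood cells were found at both times in small numbers. Of 34 lymphoid markers, 2 (5.88%) were found at 0 h only, Pax5 among them, beside 2.28% of all genes. At 24 h only there was 1 (2.94%, beside 1.28%), the early B-cell factor Ebf1. The region of Pax5 lay 2.53 kb upstream of the gene and that of Ebf1 in its body at 44686485 to 44686653 on chromosome 11. Myeloid markers had Mpo (myeloperoxidase) and Ly6g at 0 h only (6.25%) and Prtn3 (proteinase 3) at 24 h only (3.12%), of 32. Megakaryocyte markers had Vwf and Gp1bb at 0 h only (9.52%) and 0 at 24 h only, of 21. Mpo had 1 and 2 peaks at 0 h, with the region 2.47 kb inside the gene. Ly6g and Prtn3 were counted through regions outside their bodies.

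The list of 76 Wnt, Fgf, Bmp and hedgehog ligands also holds genes of TGF-beta (Tgfb2) and of activin or inhibin subunits (Inhbe and Inhbc). Of the 76, 4 were found at 0 h only (5.26%, beside 2.28% of all genes). They were Tgfb2, Fgf21, Inhbe and Inhbc, the last 2 being neighbours. At 24 h only there were 3 (3.95%, beside 1.28%), Fgf9, Wnt3a and Fgf15. Of the ligands named, Tgfb2 and Fgf9 had a region of both hairpins, in their bodies at 186704409 to 186704576 on chromosome 1 and 58074986 to 58075136 on chromosome 14. Wnt3a had 1 peak with hairpin 133 and 3 with hairpin 14 that did not overlap. Of 71 receptors and inhibitors, Wif1 (a Wnt inhibitor) and Acvr1c (an activin receptor) were found at 0 h only (2.82%) and 0 at 24 h only. Members with a peak went from 14 to 9 with hairpin 133 and from 13 to 9 with hairpin 14.

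Cadherins, unclustered protocadherins and Cadm genes had 5 of 53 at 24 h only (9.43%, beside 1.28% of all genes) and 1, Fat3, at 0 h only (1.89%, beside 2.28%). The 24 h genes were Cdhr5, Cdh26, Pcdh1, Cdh4 and Celsr3, of which the first 3 had a region of both hairpins. Members with a peak went from 12 to 16 with hairpin 133 and from 13 to 11 with hairpin 14, so the hairpins differed in direction. The median length of this list is 94 kb, against 17.2 kb for all genes. The region of Cdhr5 is the one in the promoter window of Sct next to it. Axon guidance genes had Efna3 at 0 h only and Sema7a at 24 h only, of 72 (1.39% each). Of 59 cell cycle, apoptosis and p53 pathway genes, Ccna2 (cyclin A2) and Bik were found at 0 h only (3.39%), 0 at 24 h only. The region counted for Ccna2 lay in the body of Exosc9. Of 34 genes of the DNA methylation machinery, 0 were found with both hairpins at one time only. At 0 h 2 (hairpin 133) and 1 (hairpin 14) were listed, and at 24 h 3 with either. Imprinted genes had Slc38a4 and Osbpl5 at 0 h only (3.12%) and Kcnq1 at 24 h only (1.56%), of 64.

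**Figure D5:**
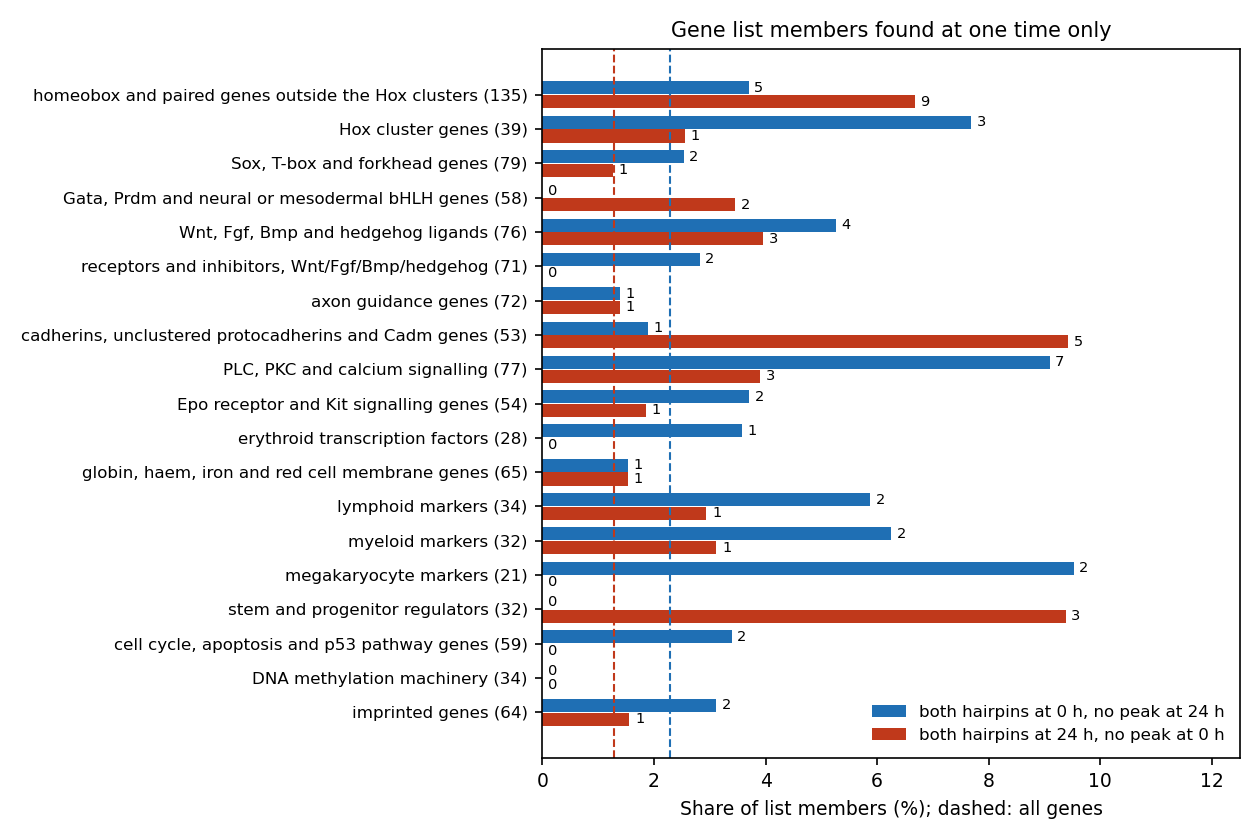
Share of the protein-coding members of each gene list (%) found with both hairpins at 0 h only (blue) or 24 h only (red), with the number of members at each bar, list sizes in brackets and dashed lines at the shares of all protein-coding genes (2.28% and 1.28%). Bars rest on 0 to 9 genes each, with 9 of 135 homeobox and paired genes at 24 h only the highest number.

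The lists were written with earlier results of these data known, and no list was tested as a set. Most lists were in any peak list more often than all genes (26%). Among them were Hox cluster genes (71.8%), stem and progenitor regulators (59.4%), the list around the targeted gene (54.5%) and the cadherin list (47.2%). Globin, haem, iron and membrane genes (24.6%) and the DNA methylation machinery (23.5%) stood below that. Against the shares of all genes, 2.28% at 0 h only and 1.28% at 24 h only, the counts above are descriptions of 4 libraries.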

How the data were processed

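Per the labels' protocols, 3 µg of genomic DNA of I/11 cells was sonicated to about 150 bp and enriched with 60 µg of MBD2-Fc. The submitters' processing notes name BWA, Picard, SAMtools, HOMER and mm10, with no versions or settings. The deposited peak lists of the authors give chromosome, start and end, nearly all of one width, and no score, so depth is unknown. Starts are given 1-based.

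All peaks were used for regions and genes, and positions were taken from peak centres on assembled chromosomes. Genes and promoter windows came from RefSeq on GRCm38.p6. Shares have exact binomial 95% intervals, and times were compared over lists by an exact permutation test, two-sided. Up to 15 genes per time, up to 6 members per gene list and time and 6 promoter windows per time were named by the ranking in the text. Predicted genes were not named. Some list members are not reported here. Unmatched symbols were Ventx, Ahsp, Tp53inp1, Nespas and Zfp264. Members and lists were chosen with earlier results of these data known. Counting was checked on simulated lists. Python 3.11.15, pandas 2.3.3, NumPy 2.4.6 and SciPy 1.17.1 were used.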

Additional observations from a re-analysis of the deposited data

Results flagged for a closer look

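In 5 gene lists the number of members with a peak changed from 0 h to 24 h in opposite directions with the hairpins, 1 library on each side, and the difference was not tested. Hox cluster genes changed by -5 with hairpin 133 and by 3 with hairpin 14, and Sox, T-box and forkhead genes by -9 and 3. Wnt, Fgf, Bmp and hedgehog ligands changed by 2 and -5, cadherins, unclustered protocadherins and Cadm genes by 4 and -2, and Epo receptor and Kit signalling genes by 2 and -3.

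Peaks on contigs without a place on a chromosome entered no comparison of positions. The list of hairpin 14 at 24 h held 4 of them, more than the 3 counts allowed by a count of 0, and the other lists held 1 or 2.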

How the results depend on the processing

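With peaks of exact coordinate matches between the hairpins removed before merging, regions of both hairpins numbered 236 at 0 h only and 45 at 24 h only, and genes 290 and 138. With identical start and end required for sharing, 680 regions were 24 h only, since an overlap with an offset at 0 h then no longer counted. With 50 kb around genes, 951 genes were 0 h only and 521 were 24 h only, and with all RefSeq genes 796 were 0 h only. Without one hairpin, that is with a single list per time, regions numbered 2958 to 3389 at 0 h only and 2186 to 2450 at 24 h only, and genes 1534 to 1870 and 1244 to 1384, as fewer lists had to concur. In each of these settings the 0 h count exceeded the 24 h count. With times paired within a hairpin (replicate block), the difference in gene ends was again 6.02 percentage points, with an exact permutation p of 0.5, the smallest that 2 pairs can give. The shares at gene ends, in bodies and far from genes and the peak number kept their direction in every setting run, and without 1 hairpin the difference in gene bodies was 1.81 to 5.96 points and that far from genes -4.02 to -1.89. Depth is unknown, so no limit for methylation at an unlisted region can be given.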
